A study of Mus musculus with 9 samples.

Results

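The outer segment disc and matrix structural genes were followed in bulk RNA-seq of mouse retina. They were 10 genes, Prph2, Rom1, Prom1, Cdhr1, Rp1, Rp1l1, Tulp1, Rpgrip1, Impg1 and Impg2, taken by symbol from the 22337 genes of the deposited table, and each matched a single row. WT retinas came from non-treated C57 BL/6J mice. The NS and MSC-EVs retinas both came from rd10 mice, which carry a mutation in Pde6b, the gene of a rod phosphodiesterase subunit, and whose rods degenerate. These rd10 mice received 1 μl into each eye at postnatal day 14 (P14) and again at P21, of normal saline (NS) or of extracellular vesicles from human umbilical cord mesenchymal stem cells (MSC-EVs). Every retina was taken at P28, and each group had 3 libraries. The WT mice had no injection and, by the paper, came from another supplier than the rd10 mice. Genotype, injection and supplier therefore cannot be told apart in either comparison with WT. The paper states that rd10 littermates were given either injection, and the labels name no litter. Neither the number of mice behind a library nor their sex is in the labels. Where libraries came from retinas of the same animal or from technical repeats, the p-values measure only that spread.

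The photoreceptor outer segment is a modified cilium filled with a stack of membrane discs that carry the visual pigment and are renewed throughout life. Peripherin-2 and Rom1 are tetraspanins that build the curved disc rim, while prominin-1 and the cadherin Cdhr1 sit at the base, where new discs form and mature. Rp1 and Rp1l1 are doublecortin-domain proteins of the axoneme, the microtubule core that the discs stack along. Rpgrip1 holds Rpgr at the connecting cilium, and Tulp1 takes part in moving proteins to the outer segment. Impg1 and Impg2 are proteoglycans of the interphotoreceptor matrix, the gel between outer segments and pigment epithelium; Impg2 spans the membrane. Mutations in these genes cause inherited retinal degenerations or macular disease in people.

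Total estimated counts per library lay between 19491721 and 62532357, and MSC-EVs replicate 3 was the deepest. The members held 1.33% to 1.38% of all counts in WT, 0.446% to 0.595% in NS and 0.529% to 0.669% in MSC-EVs. The labelled tissue carried rod, cone, bipolar and Müller glia markers in every library. The 11 rod markers summed to 78539 to 84021 in WT, as counts scaled to a common library total with edgeR's TMM factors (CPM), 16072 to 22922 in NS and 16744 to 23193 in MSC-EVs. The 10 cone markers summed to 1672 to 1907, 1651 to 1724 and 1420 to 1608 CPM. In a bulk retina, fewer rods and less RNA per rod cannot be told apart. Pde6b itself ran at 2414 to 2605 CPM in WT, 450 to 616 in NS and 474 to 712 in MSC-EVs; the rd10 allele is a missense change, so the level does not check the genotype. The 4 Y-linked markers summed to 183 and 189 CPM in MSC-EVs replicates 1 and 2 and to 0.501 CPM or less in the other 7 libraries. Y-linked expression was thus not balanced between MSC-EVs and either other group, and differences of MSC-EVs are partly confounded with it.

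Levels between genes were set per transcript length, as the authors' FPKM. In WT retina the disc rim pair led, with Prph2 at 1779 ± 22.8 FPKM and Rom1 at 1095 ± 52.8 (SD, n = 3). Tulp1 followed at 562 ± 21.7, and Cdhr1 at 323 ± 16.0 and Prom1 at 298 ± 10.8 came next with overlapping libraries. Below them stood Rp1 at 226 ± 6.41, Rpgrip1 at 177 ± 36.3 and Impg1 at 139 ± 18.9, of which the last 2 overlapped. Rp1l1 at 111 ± 5.10 and Impg2 at 65.8 ± 7.21 were the lowest. In NS retina the levels were closer together: Prph2 at 485 ± 89.4 and Rom1 at 363 ± 62.5 FPKM overlapped, as did the run of Tulp1, Cdhr1 and Prom1 between 185 and 197 FPKM, and Impg2 at 58.3 ± 8.04 stood above Rp1l1 at 33.9 ± 6.31. In MSC-EVs retina Impg2 was the 6th of the 10 at 114 ± 30.3 FPKM, overlapping Rp1 at 110 ± 9.87, while Prph2 at 479 ± 76.9 and Rom1 at 351 ± 49.5 were again the highest.

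**Figure D1:**
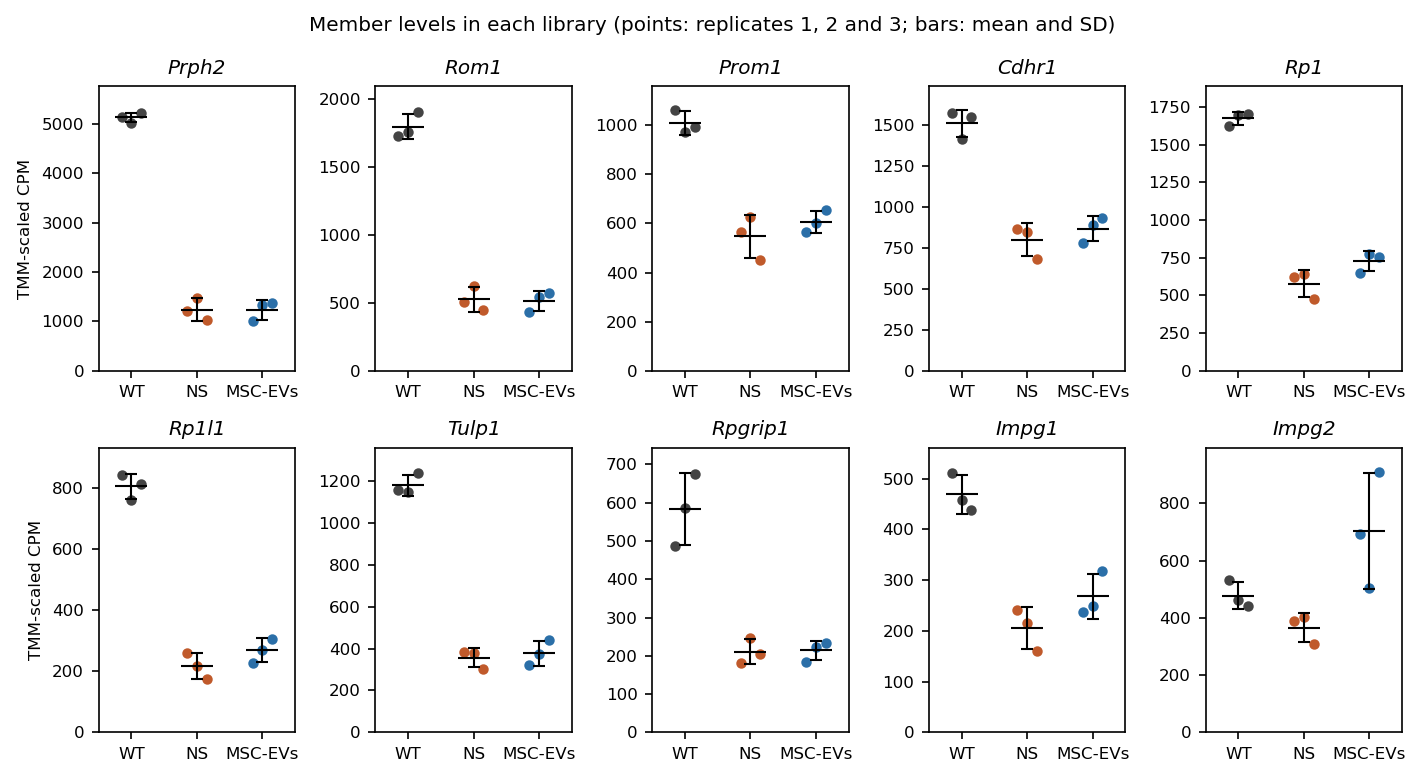
Each panel shows a member's TMM-scaled CPM (linear axis from 0) in WT, NS and MSC-EVs; points are libraries and bars the mean and SD of 3. All NS libraries lie below all WT libraries in every panel, and Impg2 is the panel in which the MSC-EVs points reach above WT, up to 909 CPM.

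The bases just upstream of 4 members are shown because the disc rim pair and the matrix pair gave the contrasts described below. They are from RefSeq (GRCm38.p6), up to 120 bases that end at the outermost annotated start, written 5′ to 3′ on the gene's strand, and capitals mark the letters TAATC or its reverse complement GATTA. The former lies inside TAATCC, the core favoured by CRX, the photoreceptor homeobox factor. The spans are chr17:46910339-46910458 (plus strand) for Prph2, chr19:8929357-8929476 (minus) for Rom1, chr9:80465482-80465601 (minus) for Impg1 and chr16:56204193-56204312 (plus) for Impg2.
Prph2: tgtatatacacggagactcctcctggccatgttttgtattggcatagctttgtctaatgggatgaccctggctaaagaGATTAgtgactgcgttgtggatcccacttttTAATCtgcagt
Rom1: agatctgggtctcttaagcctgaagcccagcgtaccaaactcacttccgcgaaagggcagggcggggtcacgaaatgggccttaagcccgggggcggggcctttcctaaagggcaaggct
Impg1: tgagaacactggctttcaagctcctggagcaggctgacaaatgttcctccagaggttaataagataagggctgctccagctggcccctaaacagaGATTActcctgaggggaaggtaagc
Impg2: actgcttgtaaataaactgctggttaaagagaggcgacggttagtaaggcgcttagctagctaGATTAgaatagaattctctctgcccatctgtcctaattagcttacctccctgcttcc

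The 250 bases before the RefSeq start were searched on both strands. TAATC was present in 5 of the 8 members with a RefSeq promoter, namely Prph2, Prom1, Impg1, Impg2 and Rpgrip1. Over all 32851 promoters, counted per promoter and not per gene, 19.8% held it. The 8 members had 9 promoters, and the second Prom1 promoter held no TAATC. Both Prom1 promoters lie inside the GENCODE gene. Rp1 and Rp1l1 had no entry. The longer TAATCC was found in Rpgrip1 alone among the 8, against 6.3% of all promoters. TGCTGA, the half-site of the rod factor NRL, was likewise found in Rpgrip1 alone, against 16.1%. The Rpgrip1 TAATCC match, shown as 30 bases at chr14:52110863-52110892 (plus strand) with the match in capitals, lies inside the GENCODE gene, which starts upstream of the RefSeq start.
Rpgrip1: gctaaaaggcctGGATTAgtgtctcctcta
The matched letters are a description of these windows and say nothing about binding.

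To ask how the degenerating rd10 retina differed from WT, NS was compared with WT. All 10 members were lower in NS by edgeR's quasi-likelihood test (Benjamini-Hochberg adjusted p from 2.81e-08 to 0.0102, over 14644 genes), while 30.1% of all genes tested were called lower and 31.2% higher. When a log2 fold change of 1 or more in size was also required, 7 of the 10 remained against 3.56% of all genes. The median log2 fold change was -1.50 over the members and 0.005 over all genes. Every NS library lay below every WT library for all 10 members in CPM, as for 33.2% of all genes, and 33.7% of genes lay wholly above.

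The disc rim gene Prph2 fell the furthest of the 10 members. It (chr17:46910459-46924933, plus strand) measured 5137, 5022 and 5220 CPM in WT replicates 1, 2 and 3, and 1209, 1481 and 1025 CPM in NS. Its log2 fold change was -2.05 (SE 0.12, edgeR adjusted p 1.97e-07), a 4.15-fold lower level, and 0.37% of genes tested had a more negative value. Rom1 (chr19:8927391-8929356, minus strand) measured 1728, 1758 and 1902 CPM in WT and 503, 627 and 450 in NS. That was a log2 fold change of -1.77 (SE 0.11, edgeR adjusted p 3.94e-07), or 3.42-fold lower. For both tetraspanins the lowest WT library stood well above the highest NS library.

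The genes of the disc-forming base were reduced by less. Prom1 (chr5:43993620-44102032, minus strand) measured 1063, 970 and 992 CPM in WT and 566, 625 and 453 in NS. Cdhr1 (chr14:37077857-37098347, minus strand) measured 1572, 1415 and 1547 CPM in WT and 866, 848 and 685 in NS. Neither gene's groups overlapped, and the NS means were 548 ± 87.1 for Prom1 and 800 ± 99.9 CPM for Cdhr1 (SD, n = 3). The log2 fold change was -0.88 for Prom1 (SE 0.10, edgeR adjusted p 4.52e-05) and -0.92 for Cdhr1 (SE 0.09, edgeR adjusted p 4.72e-06), both short of a log2 fold change of -1.

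Among the axoneme and cilium members, Rp1l1 (chr14:63992506-64035025, plus strand) fell the most, from 840, 759 and 811 CPM in WT to 260, 216 and 176 in NS. This gave a log2 fold change of -1.89 (SE 0.13, edgeR adjusted p 6.19e-06). Rp1 (chr1:3999557-4409241, minus strand), its paralog in the same structure, measured 1625, 1697 and 1704 CPM in WT and 621, 640 and 476 in NS, a log2 fold change of -1.53 (SE 0.10, edgeR adjusted p 6.18e-07). Both genes had NS libraries far under their WT libraries. Tulp1 (chr17:28351515-28365222, minus strand) measured 1155, 1145 and 1235 CPM in WT and 383, 381 and 304 in NS, a log2 fold change of -1.73 (SE 0.09) with an edgeR adjusted p of 2.81e-08. Rpgrip1 (chr14:52110704-52163546, plus strand) measured 488, 585 and 676 CPM in WT and 181, 247 and 205 in NS. Its log2 fold change was -1.47 (SE 0.15, edgeR adjusted p 0.000113), and its WT libraries were the most spread of the 10 members, with an SD of 16.1% of the mean.

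The matrix proteoglycans parted. Impg1 (chr9:80313330-80465481, minus strand) measured 512, 457 and 438 CPM in WT and 241, 215 and 160 in NS. It fell by 1.19 on the log2 scale (SE 0.15, edgeR adjusted p 0.000552), or 2.28-fold lower. Impg2 (chr16:56204313-56273756, plus strand) measured 531, 461 and 443 CPM in WT and 388, 402 and 309 in NS. It fell by 0.39 on the log2 scale (SE 0.11, edgeR adjusted p 0.0102), the smallest reduction of the 10, and 19.03% of all genes had a more negative value. In FPKM its WT libraries at 73.9, 63.5 and 60.0 and its NS libraries at 62.4, 63.5 and 49.1 overlapped. The Impg2 call was lost with library totals alone (log2 fold change -0.21, adjusted p 0.0945), with all 9 libraries in a single edgeR fit (-0.38, adjusted p 0.149) and on FPKM with limma (-0.17, adjusted p 0.185). The TMM factors differ between the groups such that leaving them out adds 0.18 to every NS against WT log2 fold change.

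**Figure D2:**
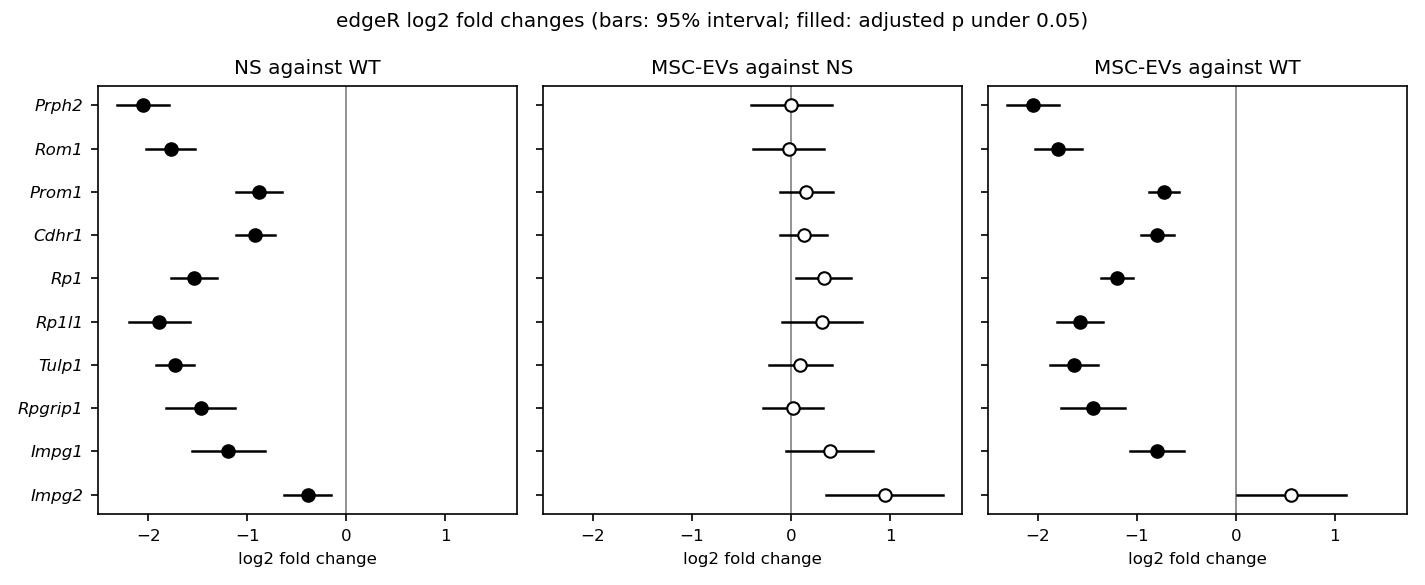
The panels give each member's edgeR log2 fold change (horizontal axis) in NS against WT, MSC-EVs against NS and MSC-EVs against WT, with 95% intervals; filled points passed an adjusted p of 0.05. The first panel holds 10 filled points, the middle panel none, and the last 9, with Impg2 open and to the right of 0.

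Within structural pairs the FPKM ratio also differed between WT and NS. The Prph2 to Rom1 ratio was 1.69, 1.63 and 1.56 in WT and 1.37, 1.34 and 1.30 in NS. The Rp1 to Rp1l1 ratio was 1.89, 2.18 and 2.05 in WT and 2.34, 2.90 and 2.65 in NS. The Impg2 to Impg1 ratio was 0.462, 0.483 and 0.484 in WT and 0.737, 0.905 and 0.932 in NS. So Prph2 fell more than its rim partner, Rp1l1 more than Rp1 and Impg1 more than Impg2, with no overlap between the groups in any of the 3 ratios. How often ratios of other gene pairs separate was not computed. Among single genes in CPM, 33.2% lay wholly below WT in NS and 33.7% wholly above. The exact two-sided permutation test gave p = 0.1 for each of the 3 pairs, the smallest p that 3 against 3 libraries allow.

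**Figure D3:**
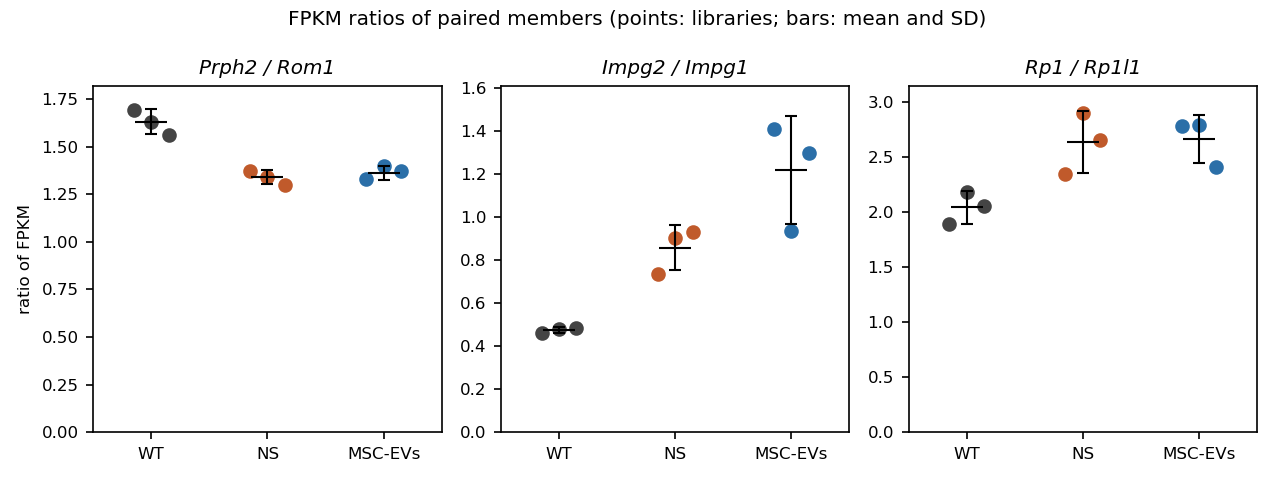
The 3 panels show the ratio of FPKM between paired members (linear axis from 0) in WT, NS and MSC-EVs; points are libraries, bars the mean and SD. The Prph2 to Rom1 ratio falls from a mean of 1.63 in WT to 1.34 in NS, and the Impg2 to Impg1 ratio rises from 0.476 to 0.858 and reaches 1.22 in MSC-EVs.

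To place the members beside other rod genes, the mean log2 CPM of the 11 rod markers was subtracted from each member in each library. That mean was lower in NS than in WT by 1.79 on the log2 scale. Prph2 was lower than the rod list in NS by a further 0.28 (pooled SD 0.06), the only member with every NS library below every WT library on this scale, as were 0.335% of genes. Rom1 and Tulp1 moved with the list, at differences of 0.00 and 0.05, and Rp1l1 at -0.12 and Rpgrip1 at 0.32 had overlapping libraries. The other 5 were wholly above WT on this scale, as were 97.4% of genes: Rp1 by 0.24, Impg1 by 0.58, Cdhr1 by 0.86, Prom1 by 0.89 and Impg2 by 1.40. Over the 10 members compared, the exact two-sided permutation p was 0.1, the smallest possible, for Prph2 and these 5, 0.2 for Rpgrip1, and 0.3 to 1.0 for the others. The 10 cone markers, with a median log2 fold change of 0.073 in NS against WT, were then used as the reference. On that scale 9 members were wholly below WT and none above, and Impg2 stood at -0.37. The share of all genes on the cone scale was not computed. In CPM with no reference, all 10 members and 33.2% of genes lay wholly below WT.

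**Figure D4:**
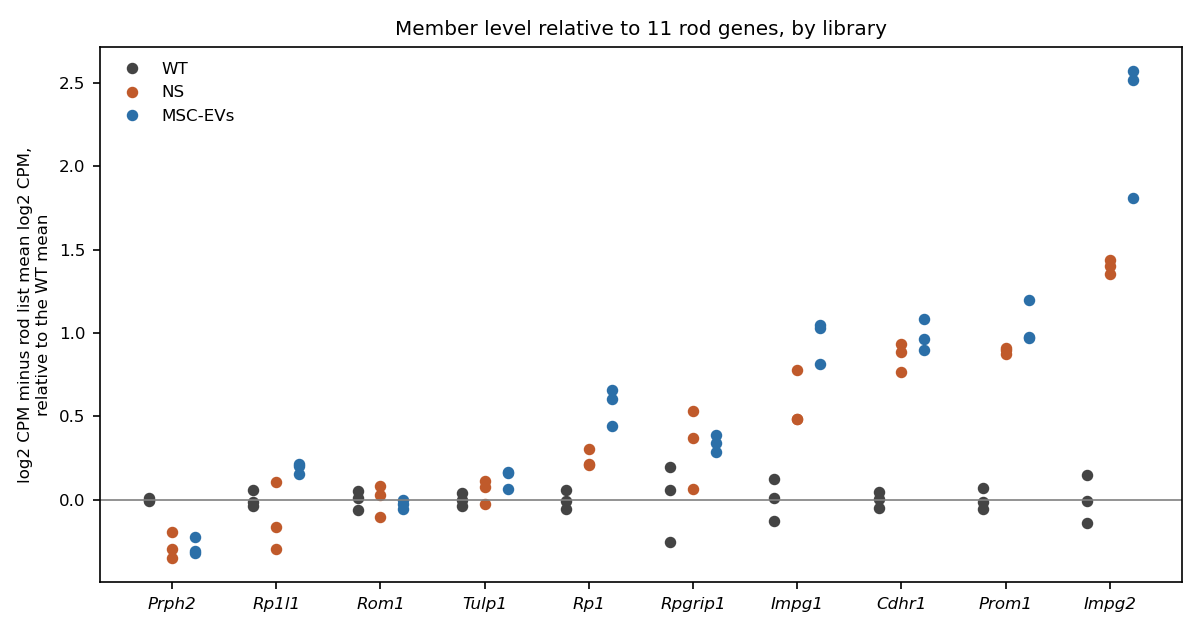
Points are libraries; the vertical axis is a member's log2 CPM minus the mean log2 CPM of 11 rod genes, set to 0 at the WT mean. Prph2 lies under 0 in all rd10 libraries, Rom1 and Tulp1 near 0, and Prom1, Cdhr1 and Impg2 well above, with Impg2 highest in MSC-EVs.

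Other genes of the same structures were counted from 3 lists. Of the disc membrane and rim list, 9 of 10 tested genes were lower in NS and none higher, beside 30.1% lower and 31.2% higher over all genes. Fscn2, a photoreceptor actin bundler, fell from 104 to 120 CPM in WT to 23.1 to 31.5 in NS (log2 fold change -2.04, edgeR adjusted p 6.30e-08). The disc list shares genes with the rod list, Cnga1 among them.

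Of the axoneme and connecting cilium list, 19 of 23 were lower and none higher, against the same 30.1% and 31.2%. They were led by Unc119, a carrier of lipid-modified cilium proteins (log2 fold change -1.66, edgeR adjusted p 3.02e-08). Fam161a, a microtubule-binding cilium protein, followed at -1.66 (edgeR adjusted p 1.63e-08). Of the matrix list, 3 of 11 were lower, a share near the 30.1% of all genes, and 6 were higher, where 31.2% of all genes were. Rbp3, the retinoid carrier of the matrix, fell by 1.11 on the log2 scale (edgeR adjusted p 2.74e-06). Cd44, a hyaluronan receptor, rose from 13.2 to 17.9 CPM in WT to 121 to 151 in NS (log2 fold change 3.13, edgeR adjusted p 8.56e-09). Efemp1, a fibulin, rose by 1.49 (edgeR adjusted p 5.75e-09). Beside the matrix rises, the 8 microglia markers were all higher in NS, with sums of 339 to 406 CPM against 69.9 to 74.3 in WT, and 5 of 7 Müller glia markers were higher; their part in the matrix counts was not tested.

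To ask what MSC-EVs changed, MSC-EVs were compared with NS. None of the 10 members was called by edgeR's quasi-likelihood test (adjusted p from 0.116 to 0.994), where 0.251% of the 14765 genes tested were called lower and 0.914% higher. At an unadjusted edgeR p under 0.05 there were 2 of the 10, Impg2 and Rp1, beside 2980 of the 14765 genes tested. DESeq2's Wald test called 1, Impg2 (adjusted p 0.0104). Impg2 and Rp1 were wholly above NS in CPM, as were 12.8% of genes, and no member was wholly below, as were 13.5%. The fitted log2 fold change was above 0 for 9 members and below 0 for Rom1, with a median of 0.14 over the members and -0.002 over all genes.

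Impg2 measured 694, 506 and 909 CPM in MSC-EVs replicates 1, 2 and 3, against 388, 402 and 309 in NS. Every MSC-EVs library was above every NS library, and replicates 1 and 3 were also above every WT library. The log2 fold change was 0.95 (SE 0.24, 95% interval 0.36 to 1.54), a 1.93-fold difference, with an edgeR adjusted p of 0.116, and 99.36% of the genes tested had a smaller value. Over the alternatives the adjusted p ran from 0.0104 to 0.299: all 9 libraries in a single edgeR fit gave 0.0406, and leaving out MSC-EVs replicate 2 gave 0.0163 at a log2 fold change of 1.14. With Y-linked expression as a covariate the log2 fold change was 1.32. Only MSC-EVs replicates 1 and 2 carried Y-linked transcripts, so the MSC-EVs term of that fit rests almost wholly on MSC-EVs replicate 3. Replicate 3 had the highest Impg2 level and a Y-linked sum of 0.358 CPM. Of the cell type markers, none of the 11 rod, 10 cone, 7 Müller glia, 8 microglia, 7 pigment epithelium or 6 tested lens genes was called between the rd10 groups, with pigment epithelium sums of 51.8 to 214 CPM in NS and 66.7 to 202 in MSC-EVs. The summed cone markers were nevertheless wholly lower in MSC-EVs, at 1420 to 1608 CPM against 1651 to 1724 in NS (median log2 fold change -0.27), and so were the Müller glia markers, at 6150 to 6375 against 6801 to 8302 (median -0.17); their part in the Impg2 difference was not tested. Of the 7 bipolar markers 1 was called, Pcp2 (log2 fold change -0.41, edgeR adjusted p 0.0451).

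Rp1 measured 649, 772 and 757 CPM in MSC-EVs against 621, 640 and 476 in NS. The groups did not overlap, but the lowest MSC-EVs library stood just above the highest NS library. Its log2 fold change was 0.33 (SE 0.12, 95% interval 0.05 to 0.61, edgeR adjusted p 0.181), and no alternative brought it past the threshold (adjusted p 0.0522 to 0.380). Impg1, the second proteoglycan, measured 237, 249 and 318 CPM against 241, 215 and 160 in NS, and the groups overlapped. The difference was 0.39 on the log2 scale (95% interval -0.05 to 0.83, edgeR adjusted p 0.295). Rp1l1 measured 228, 271 and 306 CPM against 260, 216 and 176, a log2 fold change of 0.31 (95% interval -0.09 to 0.71).

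The disc rim genes did not differ detectably between the rd10 groups. Prph2 measured 1005, 1330 and 1375 CPM in MSC-EVs, within the span of the NS libraries but for the lowest, and its log2 fold change was 0.00 (95% interval -0.41 to 0.42, edgeR adjusted p 0.994). Rom1 measured 432, 542 and 573 CPM, a log2 fold change of -0.02 (95% interval -0.38 to 0.34, edgeR adjusted p 0.956). The upper bounds lie under the 2.05 and 1.77 by which these genes fell from WT to NS on the log2 scale. Prom1 at 566, 600 and 655 CPM, Cdhr1 at 783, 891 and 934, Tulp1 at 322, 372 and 440 and Rpgrip1 at 185, 222 and 234 all overlapped NS, with log2 fold changes from 0.02 to 0.15. The 95% interval of their differences reached no higher than 0.42 (Prom1) and no lower than -0.28 (Rpgrip1).

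Single libraries set the spread of the rd10 groups. NS replicate 3 was the lowest NS library for 9 of the 10 members, MSC-EVs replicate 1 the lowest of its group for 9 and replicate 3 the highest for 9. Replicate 3 was also the deepest. The mean log2 CPM of the rod markers ran in the same order, at 9.70, 9.84 and 9.41 in NS replicates 1, 2 and 3 and 9.41, 9.71 and 9.85 in MSC-EVs. Relative to that mean, 5 members, Rp1, Rp1l1, Impg1, Impg2 and Prom1, stood wholly above NS in MSC-EVs, as did 2.7% of genes, and none wholly below, as did 3.15%. The differences were 0.33, 0.31, 0.38, 0.90 and 0.15 on the log2 scale, each with an exact two-sided permutation p of 0.1, the smallest possible, over 10 members compared. In CPM without the subtraction, 2 members and 12.8% of genes were wholly above NS. Subtracting the rod mean takes out library spread that a gene shares with the rod markers and adds that spread to other genes. The 2.7% is therefore not a like background for genes that follow the rods, whose share was not computed.

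Of the 44 tested genes in the 3 lists, 2 were called between the rd10 groups, both higher, where 0.914% of all genes were called higher and 0.251% lower. Mak, a kinase of the photoreceptor cilium, measured 178, 171 and 217 CPM in MSC-EVs against 133, 134 and 113 in NS (log2 fold change 0.58, edgeR adjusted p 0.0465). Cd44 measured 226, 229 and 179 CPM against 121, 142 and 151 (log2 fold change 0.62, edgeR adjusted p 0.046). Both calls sat near the threshold: when MSC-EVs replicate 1 was left out none of the 44 was called, nor when either replicate 1 or replicate 3 of NS was. Leaving out NS replicate 2 gave 1, and with a replicate block there was 1. With upper-quartile factors there was none. The 2 highest Cd44 libraries, MSC-EVs replicates 1 and 2, were those with Y-linked transcripts.

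MSC-EVs were then compared with WT, with the WT libraries already used for NS, so that the values stand side by side and are not independent of those above. In MSC-EVs, 9 of the 10 members were called lower than WT (edgeR adjusted p 1.44e-06 to 0.00084), where 27.2% of 14623 genes were lower and 28.3% higher. With the fold limit 6 remained, against 3.2% of genes. The same 9 were wholly below WT in CPM, as were 33.3% of genes, and no member was wholly above, as were 31.9%. The log2 fold changes were -2.04 for Prph2, -1.79 for Rom1, -1.63 for Tulp1, -1.57 for Rp1l1, -1.44 for Rpgrip1 and -1.20 for Rp1. Prom1 at -0.73, Cdhr1 at -0.79 and Impg1 at -0.80 were called without reaching -1.

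Impg2 was the exception, at 703 ± 202 CPM in MSC-EVs and 478 ± 46.5 in WT (SD, n = 3). Its log2 fold change against WT was 0.56 (SE 0.22, 95% interval 0.01 to 1.11, edgeR adjusted p 0.0767). It was called higher with library totals alone (0.72, edgeR adjusted p 0.0369), by DESeq2's Wald test (0.57, adjusted p 0.0448) and on FPKM with limma (0.75, adjusted p 0.0177). The same held without MSC-EVs replicate 2 (0.75, edgeR adjusted p 0.00349). In edgeR it was not called with DESeq2 or upper-quartile factors, other count filters, all 9 libraries, a replicate block or any other library left out. Library totals and FPKM do not use the TMM factors, and leaving these out adds 0.16 to every MSC-EVs against WT log2 fold change. With Y-linked expression as a covariate the value was 0.93, in a fit that rests almost wholly on MSC-EVs replicate 3. The Impg2 to Impg1 ratio of FPKM was 1.41, 0.937 and 1.30 in MSC-EVs, with every library above every NS library (exact two-sided permutation p = 0.1, the smallest possible). The separation was narrow, as NS replicate 3 stood at 0.932. How often ratios of other gene pairs separate between the rd10 groups was not computed. The Prph2 to Rom1 ratio at 1.33, 1.40 and 1.37 and the Rp1 to Rp1l1 ratio at 2.78, 2.79 and 2.41 overlapped NS (exact permutation p = 0.5 and 0.9).

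The transcript length that links the deposited count and FPKM was not fixed for every member. For Prph2, Rom1, Cdhr1 and Rp1l1 that length was the same to within 1 base in all 9 libraries, at 2665, 1517, 4332 and 6684 bases. For Rpgrip1 it was 3191, 3104 and 2908 bases in WT, 2900, 2409 and 2753 in NS and 3144, 3479 and 3507 in MSC-EVs, a span of 36.08% of the mean. Its CPM overlapped between the rd10 groups, while its FPKM was 64.8, 107 and 78.3 in NS and 61.1, 66.0 and 68.6 in MSC-EVs. The fitted log2 fold change of Rpgrip1 was 0.02 by edgeR on counts and -0.32 by limma on log2(FPKM + 1) (adjusted p 0.341). Prom1 spanned 18.81% of its mean length, Impg1 11.63% and Impg2 8.21%. GENCODE lists 19 transcripts for Rpgrip1 and 19 for Prom1. The exons of Rpgrip1 overlap those of Supt16 on the opposite strand over 1057 bases, and no source used here says that counting used strand, so reads there cannot be assigned. Stretches of 50 bases shared with other genes made up at most 0.3% of any member.

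**Figure D5:**
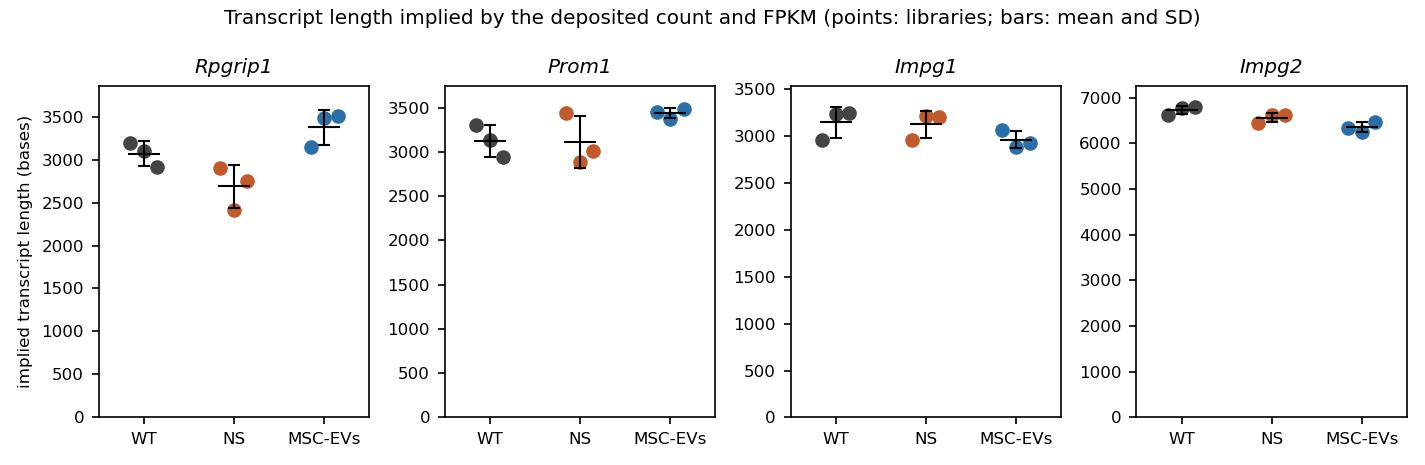
The vertical axis (bases, from 0) is the transcript length implied by the deposited count, FPKM and library total for Rpgrip1, Prom1, Impg1 and Impg2; points are libraries, bars the mean and SD. Rpgrip1 varies the most, from 2409 bases in NS replicate 2 to 3507 in MSC-EVs replicate 3.

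Across the 9 libraries, log2 CPM of each member was set against the mean of the 10 standardized profiles. That mean includes the member itself, which raises its r, and the share of all genes with such values was not computed. Pearson's r was 0.9455 to 0.9923 for 9 members and 0.1888 for Impg2, over points that share the WT to rd10 step. Of the genes that are not members, Glt28d2 (r = 0.9961), Pde6a, the rod phosphodiesterase alpha subunit (0.9957), Myt1 (0.9956), Klhl36 (0.9955) and Ppara (0.9946) had the profiles most like that mean. Glt28d2 averaged 15.5 CPM in WT, 6.55 in NS and 7.90 in MSC-EVs, and Pde6a 3144, 990 and 1192 CPM.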

How the data were processed

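Poly(A) RNA of retina was sequenced by Illumina. The authors deposited estimated counts per gene, not scaled to depth, and FPKM, in which the authors corrected for depth and transcript length. The submitters' processing notes name fastp, Bowtie2, HISAT2, StringTie 1.3.1 and RSEM without roles, and the genome build is not given in the sources used here. Positions came from GENCODE M21 (GRCm38), which holds 22232 of 22337 gene identifiers, and sequences from RefSeq (GRCm38.p6). The members and lists were chosen with earlier results of these data known.

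Estimated counts were rounded, because decimals stood in 9.2% to 11.7% of a library's genes; the planned design had assumed whole counts. Each comparison used its 6 libraries in edgeR 4.0.16 (R 4.3.3): filterByExpr, TMM, robust glmQLFit and glmQLFTest. A call is a Benjamini-Hochberg adjusted p under 0.05 over all genes tested. All 10 members passed the filter in each comparison. Total counts of 19491721 to 62532357 per library gave each member at least 3502 counts. Exact permutation tests over libraries were two-sided. Genes named outside the members were, per list, those with the most negative and most positive called log2 fold changes in NS against WT, up to 2 each, those called between the rd10 groups, and the 5 with the profile most like the members; some genes this rule covers are not reported here. Alternatives covered scaling, DESeq2 1.42.0, filters, all 9 libraries, a replicate block, limma 3.58.1 on log2(FPKM + 1) or log2(FPKM + 0.1), Y-linked expression, a fold limit and each library left out. No library pair of a group agreed within counting noise.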

Additional observations from a re-analysis of the deposited data

How the results depend on the processing

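The counts of members called in the comparisons with WT stayed within 1.5 times under every alternative (7 to 10 in NS, 6 to 10 in MSC-EVs; the lowest with the fold limit). Between the rd10 groups, the count of 0 became 1 (Impg2) by DESeq2's Wald test, with all 9 libraries in a single fit, and without MSC-EVs replicate 2 (0 to 1 over the libraries left out). The count over the 3 wider lists between the rd10 groups, 2, was 0 with upper-quartile factors, 1 with library totals alone, 4 by DESeq2 and 4 with all 9 libraries. That count was 0 by limma without a filter, 0 with the fold limit, and 0 to 3 with a library left out. With the fold limit it was 21 instead of 37 in NS against WT and 17 instead of 38 in MSC-EVs against WT. With cone markers in place of rod markers, 0 members lay wholly above and 9 below WT in NS. Without NS replicate 1, 2 lay below WT in NS (1 to 2 with a library left out) and 1 below NS in MSC-EVs (0 to 1). The share of all genes was not computed for these settings. The cause of these shifts was not tested.

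Fitted log2 fold changes near 0 between the rd10 groups changed sign, each with an adjusted p above 0.3. Prph2 gave -0.031 with upper-quartile factors, -0.017 with library totals, -0.001 without a filter, -0.002 with all 9 libraries and -0.015 by limma on FPKM at either pseudocount or without a filter, and -0.114 to 0.153 with a library left out. Prom1 gave -0.006 by the 3 limma fits. Rpgrip1 gave -0.011 with upper-quartile factors, and -0.322, -0.325 and -0.322 by limma at pseudocounts 1 and 0.1 and without a filter. Rom1 gave 0.128 with Y-linked expression as a covariate. With a library left out, Rom1 ran from -0.124 to 0.121, Rpgrip1 from -0.074 to 0.152 and Tulp1 from -0.036 to 0.2. No called member changed direction.

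Samples of the groups share replicate numbers, but same-numbered libraries did not deviate together in every pair (r of 0.087, -0.078 and -0.05 in NS against WT, and 0.087, 0.208 and 0.28 in MSC-EVs against NS, where each library correlated best with its own number). A replicate block left the members called at 10, 0 and 9 in the 3 comparisons and moved the wider-list count between the rd10 groups from 2 to 1 and the others from 37 to 38 and from 38 to 37. With 3 libraries per group, the 95% intervals give the differences that these data do not exclude.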
